A study of Mus musculus with 6 samples.

Results

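Transcripts of Sqstm1 and of 9 core autophagy genes were examined in cultured mouse dermal fibroblasts with and without endothelin 1 (Et1), a small secreted signal first known for constricting blood vessels. The genes are the cargo receptor Sqstm1, the ATG8 family members Map1lc3a, Map1lc3b, Gabarap, Gabarapl1 and Gabarapl2, and the core machinery genes Ulk1, Becn1, Atg5 and Atg7. They were picked by name with results of the Et1 comparison already known, so their differences between the groups are given as a description without a test. They are 10 of the 18193 genes that a single-symbol probe set of the array names, and they have 27 of its 45037 probe sets. Of these, 22 had a mean signal at or above the filter of 41.0 and 5 lay below it.

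The Et1 group held 3 cultures given 100 nM synthetic Et1 (the human and porcine sequence) in their growth medium for 24 hours. The control group held 3 cultures grown the same way with nothing added. All 6 were primary fibroblasts from the dermis of B6 pups of both sexes, aged 0 to 2 days per the sample labels and 0 to 3 days per the design text. They were at passage 6 per the labels, and the design text has each population split into treated and untreated cultures by passage 5. The labels call the 3 arrays of a group biological replicates and name no animals, so the errors measure the spread between these arrays. RNA was hybridised to Affymetrix Mouse430_2 arrays, and the values below are MAS5 signals, linear intensities per probe set, scaled to a common 2% trimmed mean. Affymetrix probe sets ending in _a_at can match several transcripts of 1 gene, those ending in _s_at transcripts of several genes, and those ending in _x_at hold probes that may bind unrelated transcripts.

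Macroautophagy encloses cytoplasm in a double membrane, the autophagosome, and delivers it to the lysosome for breakdown. The ULK1 kinase complex starts the process, and a lipid kinase complex built on Beclin 1 marks the site where the membrane grows. An enzyme cascade that includes ATG7 and ATG5 joins ATG8 proteins (LC3 and GABARAP) to the lipid of that membrane, where receptors such as p62, the product of Sqstm1, bind them together with ubiquitinated cargo. The p62 protein is itself degraded by autophagy and also binds KEAP1, the inhibitor of the transcription factor NRF2. Arrays measure messenger RNA only, so neither lipidated LC3 nor the rate of autophagy was measured here.

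The arrays formed 2 sets on the probe sets for Bacillus transcripts that can be spiked into RNA before labelling. Their mean log2 signal was 4.75 to 5.64 on Et1 replicates 1 and 3 and control replicate 3, called the high spike-in set here. It was 3.45 to 3.57 on Et1 replicate 2 and control replicates 1 and 2, the low set. The median log2 signal of an array over all probe sets was 5.26 to 5.55, and the Bacillus mean lay below it on all arrays but control replicate 3. Such low signals are open to background. Whether spikes were added was not established. The labels name no such sets, and the cause of the split was not tested. Of 10 fibroblast markers listed, 9 had a single-symbol probe set and 8 had a tested one. Summed signals of the 9 were 14701 to 26558 on Et1 and 20592 to 34699 on control arrays, and 0 of the 8 passed limma's threshold. Among them Vim, the intermediate filament protein vimentin, read 6833 to 10130 on Et1 and 7824 to 9380 on control arrays. Col1a1, a chain of type I collagen, followed the spike-in sets, with 1882 and 1159 on Et1 replicates 1 and 3 and 1897 on control replicate 3, against 5633 on Et1 replicate 2 and 6728 and 6632 on control replicates 1 and 2. Markers of keratinocytes, endothelium, leukocytes, melanocytes and Schwann cells reached at most 178 in any array. Summed signals of 4 smooth muscle markers moved with the group, at 889 to 1380 on Et1 and 1968 to 2849 on control arrays. Most of that sum came from Cnn1, the actin-binding protein calponin, at 726 to 1068 on Et1 and 1725 to 2313 on control arrays. Myh11, smooth muscle myosin, also had no overlap, at 50.4 to 61.6 on Et1 and 74.6 to 116 on control arrays. Des and Smtn overlapped, none of the 4 was at 0, and 0 of the 4 passed limma's threshold. The part of these contractile genes in the results below was not tested.

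Sqstm1 had the largest difference of the 22 tested probe sets. Its bright probe set, 1450957_a_at, read 4937, 4334 and 4070 on Et1 replicates 1, 2 and 3, against 1729, 1825 and 2222 on control replicates 1, 2 and 3. The lowest Et1 signal was thus well above the highest control signal, and control replicate 3, the control array of the high spike-in set, was the highest of its group. The means were 4447 ± 444 in Et1 cultures and 1925 ± 261 in control cultures (SD, n = 3 each), a fold of 2.32 (log2 fold change 1.21, SE 0.14). Counted from the highest, that log2 fold change was number 97 of the 22519 tested probe sets. In bulk RNA, more cells with the transcript and more transcript per cell cannot be told apart.

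The Sqstm1 difference was above 0 in each set of arrays, and its size varied. Within the low spike-in set the log2 difference of Et1 minus control was 1.29, from 1 Et1 and 2 control arrays, and within the high set it was 1.01, from 2 Et1 arrays and 1 control array. With that set as a blocking factor it was 1.15 (SE 0.12). Leaving out 1 array at a time gave 1.13 to 1.32, from fits that share most of their arrays. By replicate number the differences were 1.51, 1.25 and 0.87 for replicates 1, 2 and 3, though pairing of the numbers was not stated. A further Sqstm1 probe set, 1444021_at, lay below the filter, with 41.1, 16.3 and 45.3 on Et1 arrays and 32.6, 39.6 and 29.8 on control arrays. Its groups overlapped, and signals this dim say little about the direction.

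In the fit over all probe sets, the bright Sqstm1 probe set was the 1 of the 22 that lay past limma's threshold, an adjusted p of 0.05. The background was 0.0977% of tested probe sets called higher and 0.346% called in either direction. Because the comparison was known when the genes were picked, neither this call nor the count is a test of Sqstm1, and nothing is read from them. The probe set missed the threshold without Et1 replicate 1 (log2 fold change 1.13), without Et1 replicate 3 (1.27), without control replicate 1 (1.14) and without control replicate 2 (1.18), and in a fit with no intensity trend.

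**Figure D1:**
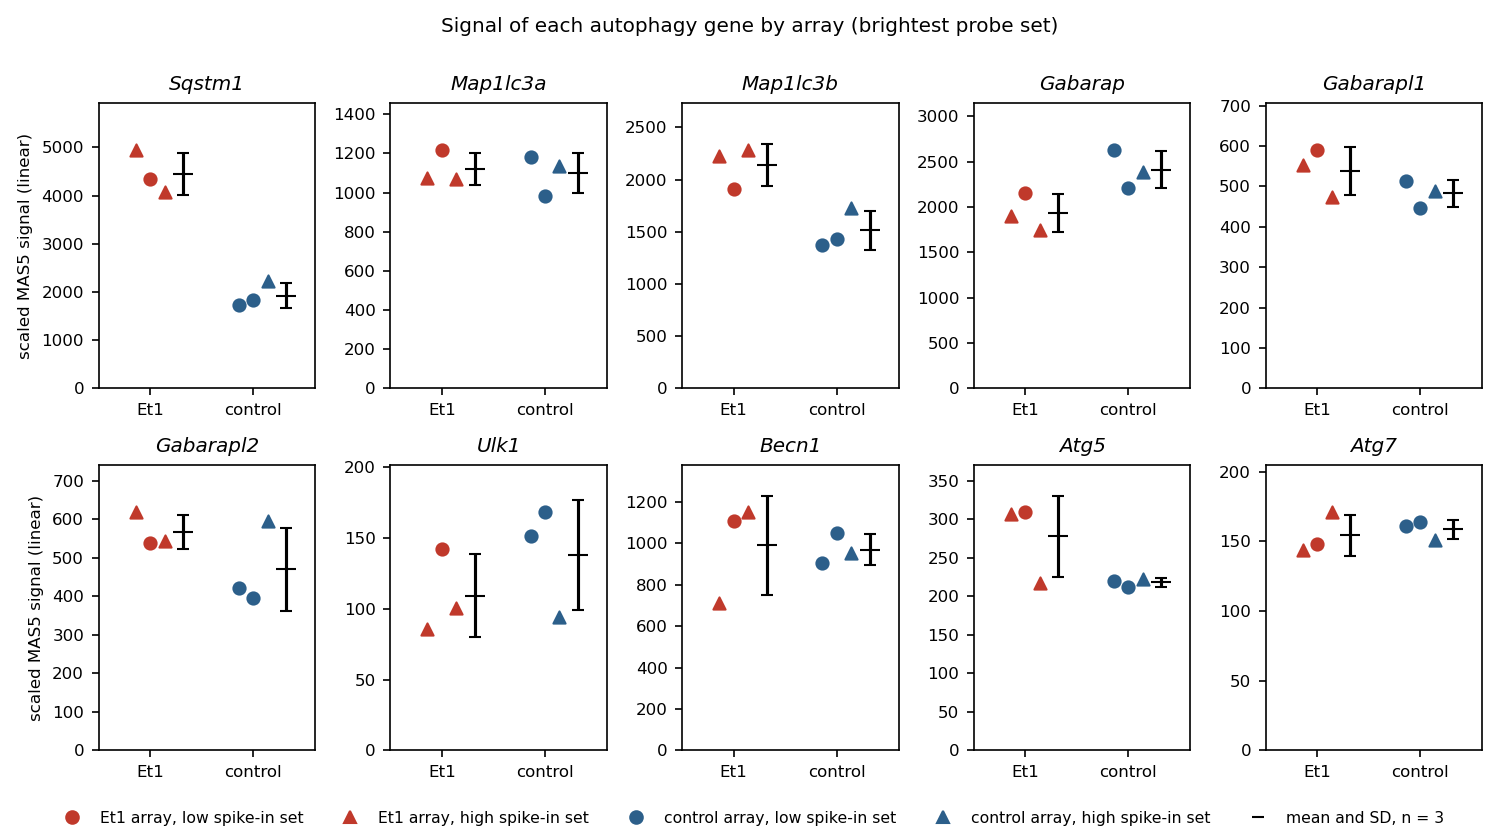
Scaled MAS5 signal (linear axis from 0) of the brightest tested probe set of each gene, with Et1 arrays on the left and control arrays on the right of each panel, and the mean with SD (n = 3) beside them. Circles are arrays of the low and triangles arrays of the high spike-in set. Sqstm1 and Map1lc3b are higher in all Et1 arrays, Gabarap is lower in all of them, and the other 7 genes overlap. Over all genes, each by its brightest tested probe set, 10.7% were higher and 8.49% lower in all Et1 arrays.

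Among the ATG8 genes, Map1lc3b, which encodes LC3B, the family member used most widely to mark autophagosomes, had higher means in Et1 cultures in all 3 of its tested probe sets. These 3 probe sets list the same source sequence and are not independent of each other. The brightest, 1415930_a_at, read 2230, 1909 and 2280 on Et1 replicates 1, 2 and 3, against 1375, 1435 and 1729 on the control arrays. No Et1 signal lay below a control signal. The means were 2140 ± 201 and 1513 ± 190 (SD, n = 3 each) in Et1 and control cultures, a fold of 1.42 (log2 fold change 0.50, SE 0.14). Probe set 1415929_at, also without overlap, read 850, 916 and 817 on Et1 arrays and 740, 686 and 723 on control arrays (log2 fold change 0.26, SE 0.13). In 1415928_a_at the groups overlapped, because control replicate 3 at 750 lay above Et1 replicate 2 at 706 (log2 fold change 0.43, SE 0.20). The brightest probe set differed by 0.44 inside the low spike-in set and by 0.38 inside the high one. With spike-in set as a blocking factor its log2 fold change was 0.41. That fit put 2 of the 22 probe sets past limma's threshold, this one and Sqstm1, where it called 1.39% of all tested probe sets higher and 2.47% lower, 3.85% in all. It was the 1 setting of 14 in which 1415930_a_at lay past the threshold, the other two Map1lc3b probe sets did not pass it there, and nothing is read from it, since these values were known when the gene was picked. The fourth probe set, 1428024_at, read 5.26 to 17.6 on Et1 and 5.67 to 16.9 on control arrays, below the filter.

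Gabarap, whose product acts late in the closure of the autophagosome and its fusion with lysosomes, had lower signals in Et1 cultures. Its single probe set read 1898, 2153 and 1748 on Et1 replicates 1, 2 and 3, against 2623, 2213 and 2390 on the control arrays. The groups did not overlap, but the gap was narrow: Et1 replicate 2 and control replicate 2 differed by less than the SD within either group. Means were 1933 ± 205 in Et1 and 2409 ± 206 in control cultures (SD, n = 3 each), a log2 fold change of -0.32 (SE 0.14). The difference within the low spike-in set was -0.16, and within the high set -0.39.

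Gabarapl1, Gabarapl2 and Map1lc3a overlapped between the groups in each tested probe set. For Gabarapl1, also known as GEC1, probe set 1416418_at read 277, 346 and 380 on Et1 and 248, 239 and 313 on control arrays (log2 fold change 0.32, SE 0.19). The brighter 1416419_s_at gave 0.15 (SE 0.15). Gabarapl2, also known as GATE-16, read 618, 539 and 545 on Et1 replicates 1, 2 and 3 in 1423187_at, against 421, 396 and 594 on the control arrays, so control replicate 3 alone closed the gap (log2 fold change 0.29, SE 0.19). Its difference was 0.40 within the low and -0.04 within the high spike-in set. The dim 1441376_at read 44.7 to 101 on Et1 and 39.4 to 50.6 on control arrays. The probe sets of Map1lc3a, which encodes LC3A, had log2 fold changes of 0.03 (SE 0.14) and -0.23 (SE 0.27), the first of which turned to -0.03 when arrays were centred on their medians. In all, Et1 means were higher in 8 of the 10 tested ATG8 probe sets and lower in 2, and their median log2 fold change was 0.28. Those of Gabarapl1, like the tested ones of Map1lc3b, list the same source sequence, so the 10 are not independent observations. Over all tested probe sets the median was 0.03, and 54.1% had higher means.

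Sqstm1, Map1lc3b and Gabarap were the genes whose bright probe sets did not overlap between the groups, so the stretches around their annotated starts are shown, from 250 bases before to 50 bases after the RefSeq start. Over all genes by their brightest tested probe set, 10.7% lay all higher and 8.49% all lower, so the lack of overlap is common. They are Sqstm1 at chr11:50210771-50211070 on the minus strand, Map1lc3b at chr8:121590188-121590487 on the plus strand and Gabarap at chr11:69991120-69991419 on the plus strand, all in GRCm38.p6. Each runs 5′ to 3′ on the strand of its gene, and capitals mark matches to the motifs named after the sequences.
Sqstm1: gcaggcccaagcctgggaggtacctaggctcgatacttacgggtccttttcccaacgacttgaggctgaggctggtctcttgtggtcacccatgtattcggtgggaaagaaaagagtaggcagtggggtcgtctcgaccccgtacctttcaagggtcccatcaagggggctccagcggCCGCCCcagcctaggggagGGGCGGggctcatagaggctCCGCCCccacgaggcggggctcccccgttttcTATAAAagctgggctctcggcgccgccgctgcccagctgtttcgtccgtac
Map1lc3b: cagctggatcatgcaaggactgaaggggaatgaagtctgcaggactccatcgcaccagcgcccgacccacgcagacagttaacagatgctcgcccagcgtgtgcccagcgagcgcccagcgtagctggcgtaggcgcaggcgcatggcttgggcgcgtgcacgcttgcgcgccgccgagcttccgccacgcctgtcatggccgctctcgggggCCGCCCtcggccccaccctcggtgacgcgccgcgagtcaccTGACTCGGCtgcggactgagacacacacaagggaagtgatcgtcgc
Gabarap: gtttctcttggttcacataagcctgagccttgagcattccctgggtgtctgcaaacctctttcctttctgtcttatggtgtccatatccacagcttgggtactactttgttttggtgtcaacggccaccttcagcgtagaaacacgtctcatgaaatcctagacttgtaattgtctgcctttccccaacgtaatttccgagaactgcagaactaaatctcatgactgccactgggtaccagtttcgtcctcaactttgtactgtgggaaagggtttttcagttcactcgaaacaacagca
Both strands were searched for the antioxidant response element core TGACNNNGC, the E-box core CACGTG of the lysosomal CLEAR element, the amino acid response element core TGATGNAAT, the cyclic AMP response element TGACGTCA, the AP-1 site TGANTCA, the forkhead site GTAAACA, the TATA box TATAAA and the GC box core GGGCGG. Sqstm1 held 3 GC boxes and a TATA box at positions -1 to 5 counted from the annotated start. Map1lc3b held a GC box and, at positions 5 to 13, the antioxidant core as TGACTCGGC. Gabarap held none of the 8 motifs. Among 32544 promoter stretches of this length, 35.9% held the GC box core, 13.6% the TATA box and 12.4% the antioxidant core. Promoter stretches were at hand for 8 of the 10 genes, all but Map1lc3a and Becn1. The E-box core was in those of Atg5 and Atg7 (7.17% of all stretches) and the cyclic AMP response element in that of Atg5 (1.8%). No member stretch held the amino acid core (0.956% of all), the AP-1 site (7.79%) or the forkhead site (3.66%). A match is a description of letters and no measure of binding.

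Of the core machinery, no tested probe set was without overlap between Et1 and control arrays. Ulk1, the kinase that starts autophagosome formation, read 85.5, 142 and 100 on Et1 replicates 1, 2 and 3 in 1448370_at, against 152, 168 and 94.2 on the control arrays (log2 fold change -0.33, SE 0.28). Its signals went with the spike-in sets: the 3 arrays of the high set were the 3 lowest. The dimmer 1416504_at read 12.1, 129 and 60.7 on Et1 arrays and 105, 107 and 49.3 on control arrays. Its log2 fold change of -0.85 (SE 0.76) rested on Et1 replicate 1 and was 0.11 without that array.

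Becn1, which encodes Beclin 1, had 5 tested probe sets with log2 fold changes of -0.36 to 0.24, 4 of them at or above 0. The brightest, 1455880_s_at, read 713, 1108 and 1149 on Et1 replicates 1, 2 and 3, against 904, 1052 and 953 on the control arrays. Et1 replicate 1 was the lowest and Et1 replicate 3 the highest of the 6, and the log2 fold change was 0.00 (SE 0.20). Probe set 1460320_at gave 0.13 (SE 0.16). The other 3 were dim, at 35.2 to 205 on Et1 and 50.8 to 148 on control arrays.

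Atg5, part of the enzyme complex that attaches ATG8 proteins to lipid, read 308, 309 and 217 on Et1 replicates 1, 2 and 3 in 1418236_s_at, against 220, 212 and 223 on the control arrays. Et1 replicates 1 and 2 stood above all controls, and Et1 replicate 3 lay among them (log2 fold change 0.33, SE 0.18). Its other probe sets, which list the same source sequence, gave 0.45 (SE 0.23) and -0.03 (SE 0.20), the second of which was 0.12 without Et1 replicate 1. Atg7, the enzyme that activates ATG8 proteins and ATG12, read 144, 149 and 171 on Et1 arrays and 161, 164 and 151 on control arrays in its 1 tested probe set, 1428612_at (log2 fold change -0.04, SE 0.16). Its other 3 probe sets lay below the filter, with at most 54.8 on any array, and 2 of them share the source sequence of the tested one.

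**Figure D2:**
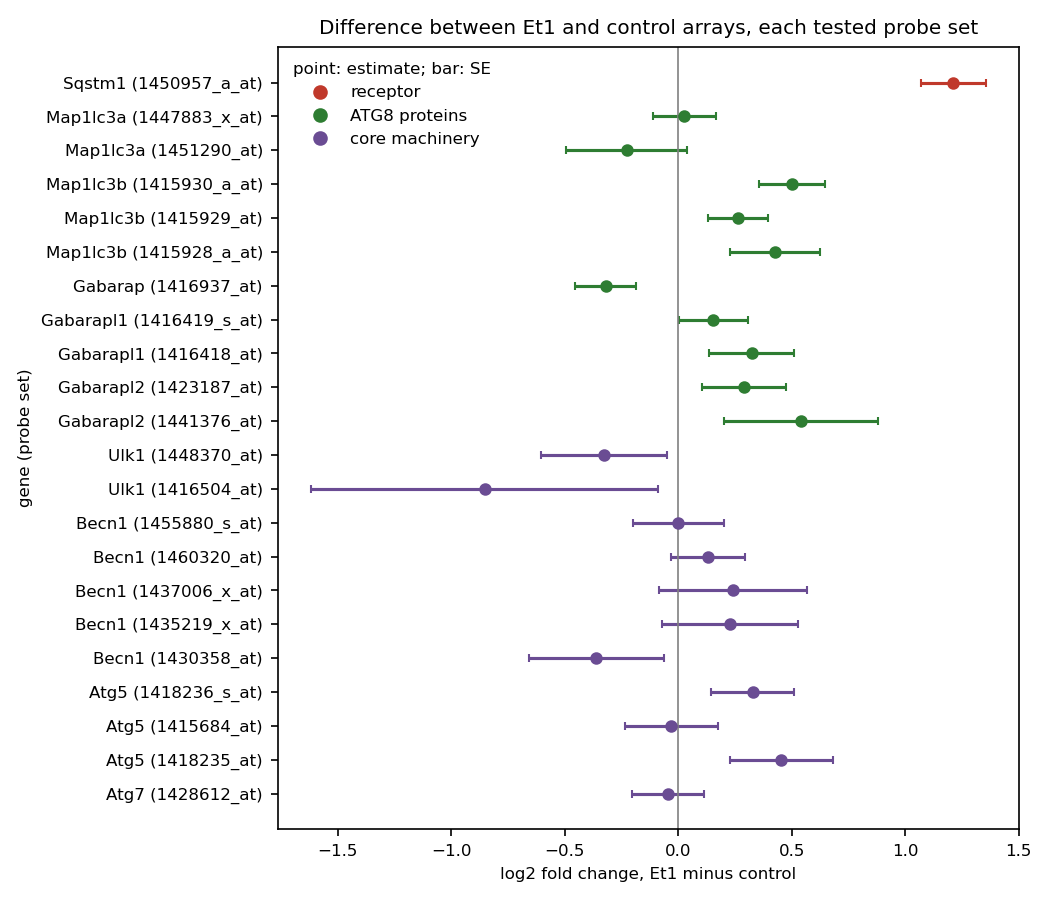
Log2 fold change, Et1 minus control, of the 22 tested probe sets (points) with its standard error (bars), coloured by role. Sqstm1 at 1.21 stands at the far right, the 3 Map1lc3b probe sets lie at 0.26 to 0.50, Gabarap at -0.32, and the 11 core machinery probe sets lie on both sides of 0.

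Together the 22 tested probe sets had a median log2 fold change of 0.19, with 15 higher and 7 lower means in Et1 cultures. In 3 the Et1 signals all lay above and in 1 all below the control signals, where 9.47% and 8.11% of all tested probe sets did so. Those above belonged to Sqstm1 and Map1lc3b only, and that below to Gabarap. Several of the 22 share a source sequence and are not independent of each other. The median of the 11 core machinery probe sets was 0.00, with 6 higher and 5 lower. When arrays were centred on their medians, 13 of the 22 were higher and 9 lower.

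The spike-in split was not used to pick these genes, so their differences across it are given with limma's p. The split was itself drawn from these same arrays with earlier results known, so those p-values are descriptive. Taking the high against the low set in a fit that also held the group, limma called 0 of the 22 probe sets higher and 2 lower, against 6.71% and 9.99% of all tested probe sets, 16.7% in all. That is no more than the share over all tested probe sets, so nothing particular to these genes is read from it. The 2 were Map1lc3a in 1451290_at (log2 difference -0.69, limma adjusted p = 0.00352) and Ulk1 in 1448370_at (-0.69, limma adjusted p = 0.0208), both lower in the high set. Map1lc3a read 396 and 331 on Et1 replicates 1 and 3 and 370 on control replicate 3, against 601 on Et1 replicate 2 and 598 and 569 on control replicates 1 and 2. Neither was called without Et1 replicate 2 or without control replicate 3, where 0 of the 22 passed. Leaving out control replicate 2 gave 1 call and leaving out control replicate 1 gave 2. More were called when an Et1 array of the high set was left out, 3 for Et1 replicate 3 and 6 for Et1 replicate 1. It was 3 with median centring and 3 with 50 added before log2. Sqstm1 differed by 0.19 between the sets (limma adjusted p = 0.340) and the bright Map1lc3b probe set by 0.27 (limma adjusted p = 0.0836).

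**Figure D3:**
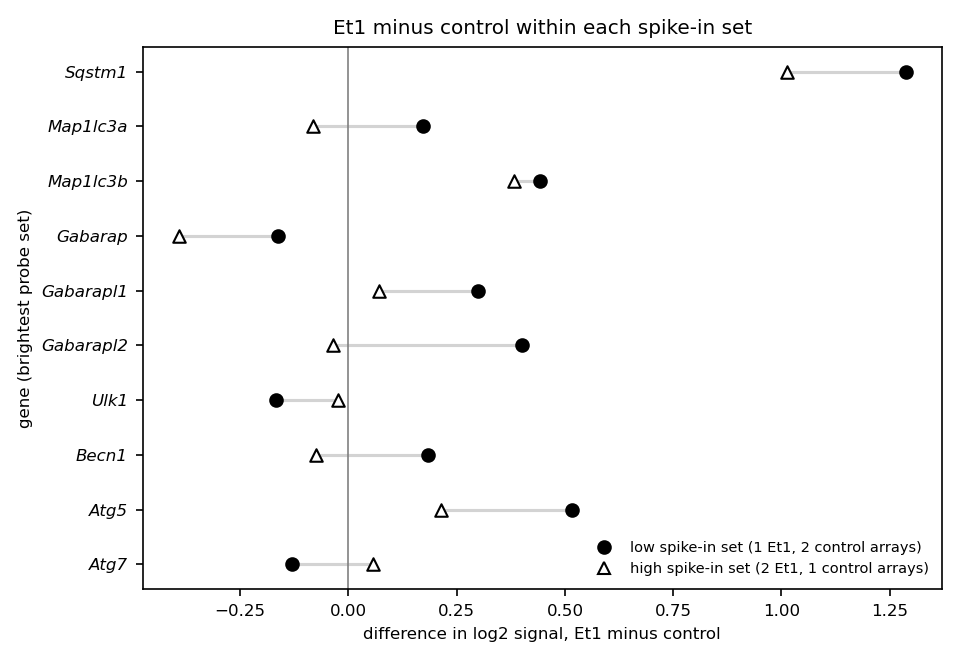
Difference in log2 signal, Et1 minus control, of the brightest probe set of each gene within the low spike-in set (filled circles) and the high set (open triangles). Sqstm1, at 1.29 and 1.01, and Map1lc3b, at 0.44 and 0.38, lie well right of 0 in both sets, Gabarap lies left of 0 in both, and Map1lc3a, Gabarapl2, Becn1 and Atg7 lie on both sides.

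The other genes of the pathway were taken from 8 lists by role, 102 genes in all, of which 93 had a tested probe set; each gene was read from its brightest one. None of the 93 passed limma's threshold, where 0.411% of 11666 genes did. At an unadjusted p of 0.05, 11 were higher and 1 lower in Et1 cultures, where 6.93% of all genes were higher and 6.53% lower. With spike-in set as a blocking factor, limma called 4, Bnip3 lower and Tex264, Atf4 and Ddit3 higher, where 4.47% of all genes were called. That is close to the share over all genes. The lists were also drawn up with earlier results of these data known. These calls, and the p-values of listed genes below, are therefore a description and not a test. The 93 had a median log2 fold change of 0.16, with 63 higher and 30 lower, against a median of 0.05 over all genes, of which 6495 were higher. Et1 signals lay all above the control signals in 15 and all below in 4, where 10.7% and 8.49% of all genes did so.

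Of 16 further cargo receptors, 10 had higher and 6 lower means, with a median of 0.17. Bnip3, a receptor for mitochondria, had the lowest log2 fold change of any listed gene. It read 194, 183 and 209 on Et1 replicates 1, 2 and 3, against 396, 338 and 374 on the control arrays, with no overlap (log2 fold change -0.92, SE 0.15, limma adjusted p = 0.0562). With the set as a block it was -0.95 (limma adjusted p = 0.00458), and with the replicate number as a block its limma adjusted p was 0.0172. Ncoa4, the ferritin receptor, read 858, 804 and 1007 on Et1 arrays and 618, 596 and 697 on control arrays, again without overlap (0.48, limma adjusted p = 0.249). Tex264, a receptor for the endoplasmic reticulum, stood at 0.53 (limma adjusted p = 0.271; 0.0351 with the block) and Ccpg1, another such receptor, at 0.58 (0.415), with 1 other probe set of opposite sign. Nbr1, the receptor most like p62 in its domains, overlapped between the groups at 526 to 706 on Et1 and 506 to 568 on control arrays (0.16); it was picked for mention after its values were seen.

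In the lists around the core machinery, medians ranged from -0.13 to 0.20. For the ULK1 complex and its kinases the median of 10 genes was 0.07, with Atg101, a complex subunit, at 0.53 (limma adjusted p = 0.371), Prkab1 and Prkag1, subunits of the AMP-activated kinase, at 0.45 and 0.42, and Rb1cc1, the scaffold FIP200, at -0.31. For the Beclin 1 lipid kinase complexes the median of 10 was 0.02. Atg14, which directs that complex to autophagy, read 105, 103 and 100 on Et1 arrays and 72.4, 73.9 and 62.2 on control arrays (0.57, limma adjusted p = 0.264). In that list Pik3c3, the catalytic subunit, stood at 0.33, Bcl2, which binds Beclin 1, at 0.33 and Sh3glb1 at -0.25. For genes of membrane growth and lipid transfer the median of 10 was -0.13, with Wipi2 at 0.43 and Wdr45 at 0.41, and with Vmp1 at -0.29 and Wipi1 at -0.29. For the conjugation enzymes it was 0.20, with 7 of 8 higher. Atg12, the ubiquitin-like partner of ATG5, read 219, 181 and 227 on Et1 arrays and 127, 123 and 179 on control arrays (0.56, limma adjusted p = 0.307). The groups nearly touched at Et1 replicate 2 and control replicate 3. The protease genes Atg4a and Atg4b stood at 0.41 and 0.34, and Atg16l1 at 0.22. Another tested probe set of Prkag1, Vmp1, Atg4a, Bcl2 and Wipi1 had the opposite sign. Sh3glb1, Wipi1 and Atg4b also differed between the spike-in sets (limma adjusted p = 0.0363, 0.0165 and 0.0387). With that set as a blocking factor they stood at -0.11, -0.12 and 0.17. Atg101, Prkab1, Rb1cc1, Atg14 and Wipi2 stood farther from 0 with the block, at 0.65, 0.58, -0.35, 0.61 and 0.49. The other genes named in this paragraph stood nearer 0 or level.

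Downstream, 11 of 14 fusion genes and 12 of 14 lysosomal genes had higher means, with medians of 0.17 and 0.18. Among the fusion genes Epg5, a tether, stood at 0.54 (limma adjusted p = 0.271), and Vps39, Vps11 and Vps41, subunits of membrane tethering complexes, at 0.52, 0.31 and 0.25. Among the lysosomal genes Atp6v1a, a subunit of the proton pump, read 985, 1002 and 999 on Et1 and 721, 851 and 800 on control arrays (0.34, limma adjusted p = 0.360). The protease Ctsl, the pump accessory subunit Atp6ap1 and the calcium channel Mcoln1 stood at 0.35, 0.32 and 0.27, each with overlap. Within the low spike-in set their differences were 0.41, 0.35 and 0.33, and within the high set 0.07, 0.03 and 0.36. Between the high and the low set Atp6ap1 differed by 0.40 (limma adjusted p = 0.0341).

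Of 11 regulators, 8 had higher and 3 lower means, with a median of 0.28. Ddit3, the stress factor CHOP, read 561, 623 and 697 on Et1 replicates 1, 2 and 3, against 285, 293 and 372 on the control arrays (0.99, SE 0.17, limma adjusted p = 0.0609; 0.93 and 0.00605 with the block). With the replicate number as a block the limma adjusted p of Ddit3 was 0.0115. Its 1 other tested probe set had the opposite sign. Atf4, which acts upstream of Ddit3, read 3331, 3582 and 2902 on Et1 and 2459, 2124 and 2303 on control arrays (0.51, limma adjusted p = 0.161; 0.0355 with the block). Mitf, of the same factor family as TFEB, stood at 0.42 and Zkscan3, a repressor of autophagy genes, at 0.31. Mitf was dim, at 56.9 to 74.0 on Et1 and 40.0 to 62.3 on control arrays, and stood at 0.22 with 50 added. Tfeb itself had no tested probe set. The brighter family member Tfe3, picked for mention after its values were seen, stood at 0.01 (limma adjusted p = 0.988; 0.22 and 0.402 with the block). Keap1 and Nfe2l2, which encode KEAP1 and NRF2 and were picked for mention after their values were seen, stood at -0.26 and 0.19, both with overlap (limma adjusted p = 0.722 and 0.626). Between the high and the low spike-in set Keap1 differed by -0.63 (limma adjusted p = 0.0163) and Tfe3 by -0.62 (limma adjusted p = 0.00911). In that comparison limma called 4 of the 93 listed genes higher and 9 lower, against 6.71% and 9.99% of all tested probe sets.

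**Figure D4:**
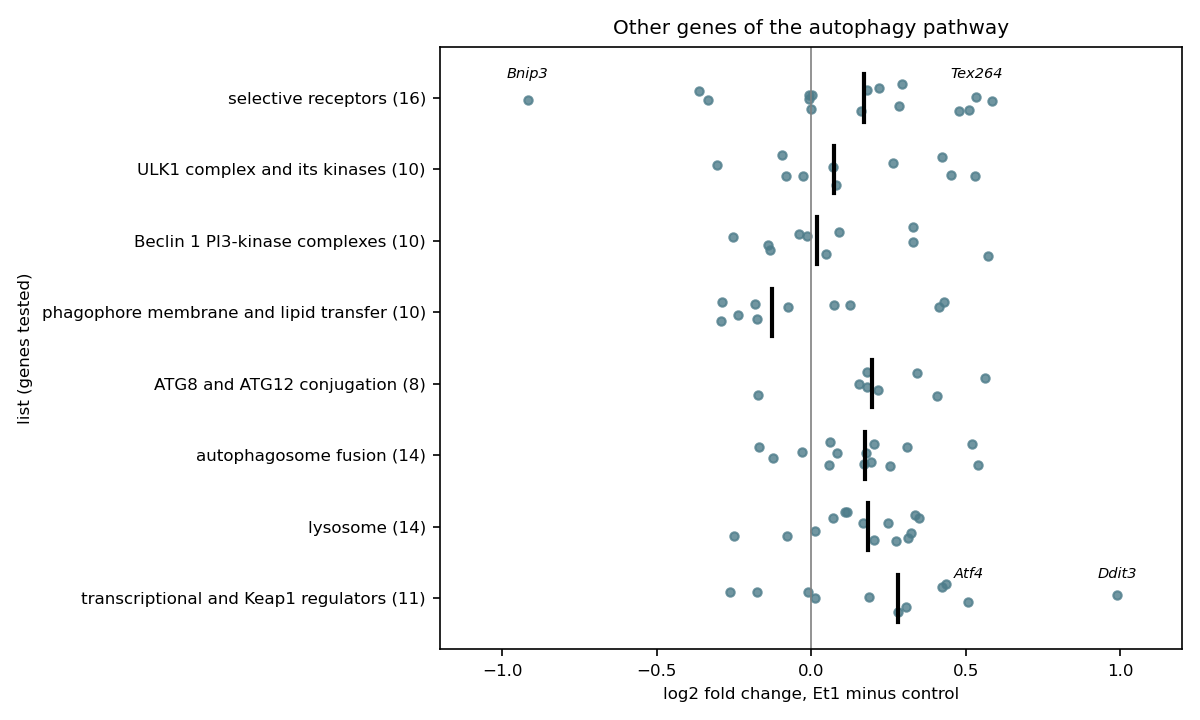
Log2 fold change, Et1 minus control, of 93 other genes of the pathway by role (points, spread vertically for legibility), with the median of each list (black bars). Bnip3 at -0.92 and Ddit3 at 0.99 lie farthest out, and 7 of the 8 medians lie between 0.02 and 0.28, with that of membrane growth at -0.13.

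The genes whose pattern over the 6 arrays was most like that of Sqstm1 were Shmt2, Antxr2, Exosc4, Rnaseh2a and Mrpl38, with Pearson correlations of log2 signal of 0.997, 0.996, 0.995, 0.994 and 0.994. The 6 arrays include both groups, so a gene that is higher in Et1 cultures tends to score high and one that is lower tends to score below 0. In all, 130 of 11665 genes exceeded 0.95. Shmt2, a mitochondrial enzyme that passes on the carbon of serine, read 2229, 1908 and 1892 on Et1 and 1036, 1130 and 1251 on control arrays, with the same order of arrays within the Et1 group as Sqstm1. Exosc4, a subunit of the RNA exosome, read 382, 339 and 346 on Et1 and 179, 199 and 227 on control arrays. Among the other core genes, by their brightest probe sets, the correlation was highest for Map1lc3b at 0.93 and lowest for Gabarap at -0.80.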

How the data were processed

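Messenger RNA was measured on 6 Affymetrix Mouse430_2 arrays, 3 Et1 and 3 control, per the labels. The authors deposited 1 linear intensity value for each probe set and array, computed with MAS5 per the submitters' processing notes, which give neither version nor target scaling. The deposited experiment files hold the same fluidics and scanner entries for all 6 arrays and no measurements.

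The 2% trimmed means of the deposited signals ran from 91.7 to 179, and all arrays were brought to a common value, the geometric mean 139. The 4 zeros were replaced by the smallest positive signal of the same array before log2, without a pseudocount. Of 45101 rows, 64 Affymetrix controls were left out. Tests covered the 22519 of 45037 probe sets whose scaled signal averaged 41.0 (the median) or more. Platform annotation gave 34945 probe sets 1 symbol, 932 several and 9160 none; names came from single symbols, 34741 of which were found by gene identifier in a RefSeq table (GRCm38.p6), and 0 changed. Promoter sequences are RefSeq's, of that build. Arrays carry no count of molecules, and their number, 3 per group, limits the precision.

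Et1 was compared with control in limma 3.58.1 (R 4.3.3; lmFit, then eBayes allowing for an intensity trend, unblocked). Benjamini-Hochberg adjustment ran over all tested probe sets, with a threshold of 0.05. The code was tested on simulated data with 50 differences planted per fold. Of these, 1 was called at a fold of 1.5, 13 at 2, 31 at 4 and 32 at 8. Outside the planted differences, 6 were called. Most planted differences of 2-fold or less were thus missed, as were many of 4-fold and 8-fold. Missing the threshold therefore says little about small differences and does not exclude large ones. Core genes, gene lists and the spike-in split (at the largest gap in the mean log2 signal of 27 Bacillus probe sets) were chosen with earlier results of these data known. The named genes are each probe set of the core genes, in each list those past the threshold or up to 4 by smallest unadjusted p, and the 5 genes most correlated with Sqstm1. Core genes and symbols that look like clone or model names were left out of those 5. Listed genes with no single-symbol probe set were not analysed here.

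Alternatives were quantile normalization, median centring, a filter at the 75th percentile or none, 50 added before log2, no intensity trend, the replicate number or the spike-in set as a block, each array left out and, for listed genes, the mean of a gene's probe sets.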

Additional observations from a re-analysis of the deposited data

How the results depend on the processing

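Over all tested probe sets limma called 78, 22 higher and 56 lower. The count was 44 with median centring (7 higher and 37 lower), 40 with no filter, 7 with no intensity trend, 868 with spike-in set as a blocking factor, and 4 to 229 with each array left out. With the replicate number as a block it was 567. Deviations from the group means correlated at -0.12, 0.44 and 0.45 for same-numbered arrays 1, 2 and 3. Et1 replicate 1 correlated best with control replicate 3, at 0.26. Those arrays share a spike-in set, as do same-numbered arrays 2 and 3, so these correlations cannot settle whether the numbers are pairs. Whether same-numbered cultures share a source is not stated, so the main fit was left unpaired. Of the listed autophagy genes 0 were called, against 2 with the replicate number as a block, 4 with spike-in set as a blocking factor, 2 with the filter at the 75th percentile (of the 66 genes left), 1 with the mean of probe sets and 0 to 1 with each array left out. High minus low spike-in set, 3760 probe sets were called, 1511 higher and 2249 lower, against 2408 with median centring (440 higher and 1968 lower), 1425 with no intensity trend and 796 to 5172 with each array left out. Without single arrays the first count was 10 (Et1 replicate 1), 46 (Et1 replicate 2), 6 (Et1 replicate 3), 4 (control replicate 1), 4 (control replicate 2) and 229 (control replicate 3), and the last was 796 without Et1 replicate 2, 2139 without control replicate 2 and 804 without control replicate 3. The cause of these shifts was not tested. The median log2 fold change of the tested core gene probe sets, 0.19, ranged from 0.09 to 0.23 over the alternatives, and that of Sqstm1, 1.21, from 1.13 to 1.32, past the threshold in 9 of 14 of them. Signs turned in 15 of 300 values, in probe sets of Map1lc3a, Ulk1, Becn1, Atg5 and Atg7. Low signals, as for the dim probe sets of Ulk1, Becn1 and Gabarapl2, are open to background: with 50 added, the 1416504_at value of Ulk1 was -0.33 instead of -0.85.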
